A study of Homo sapiens with 60 samples.

Results

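RNA collected around 2 nuclear baits was compared in cells of the human embryonic kidney line HEK293. The baits were SRSF7, a protein of nuclear speckles, and LMNA, the lamin A/C protein of the nuclear lamina. The comparison rests on 4 of the 60 libraries of the series, the 2 ribosome-depleted SRSF7 pulldowns deposited in a table of their own and the 2 LMNA pulldowns of the main table, joined gene by gene. Every line was a Flp-In HEK293 line with 1 stably expressed bait fused to FLAG and APEX2, a peroxidase that attaches biotin to RNA close to it. Per the labels, labelling took 30 minutes with biotin-phenol at 500 µM, followed by 1 minute with hydrogen peroxide at 1 mM, and biotinylated RNA was then collected on streptavidin. The 2 input libraries of each of these lines, RNA taken before the pulldown, served to show where the lines themselves differed. Both pairs of inputs come from the main table, since the separate table holds no input. The SRSF7 inputs are therefore those deposited with the main-table SRSF7 pulldowns. GFP pulldowns, NLS pulldowns (per the label, the fusion carries a nuclear localisation signal) and the SRSF7 pulldowns of the main table were used as further references, each with 2 libraries. All 4 compared libraries and the main-table SRSF7 pulldowns are labelled as ribosome-depleted RNA. The bait was expressed from a transgene beside the cells' own gene. The labels do not say whether replicates were separate cultures, so each p-value reflects only how libraries spread. That spread was estimated over all 60 libraries together, not from the compared ones alone.

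Nuclear speckles are bodies rich in splicing factors, snRNPs and the long non-coding RNA MALAT1, and active, gene-rich chromatin tends to lie near them. SRSF7 belongs to the SR proteins, which bind exonic sequences, promote splicing and link spliced mRNA to export. The lamina is a meshwork of A-type and B-type lamins under the inner nuclear membrane, next to which lies mostly gene-poor and weakly transcribed chromatin, together with nuclear pores and the perinuclear membrane system.

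The 4 libraries held 27779452 to 30511742 counts, against 14038645 to 56256915 over all 60. Over 12278 genes with a mean of at least 5 CPM (counts scaled to a common library size) in the 4 libraries, log2 CPM correlated at 0.995 within the SRSF7 pair and at 0.980 within the LMNA pair, and at 0.957 to 0.977 between SRSF7 and LMNA libraries. The same SRSF7 libraries correlated at 0.931 to 0.973 with the GFP pulldowns, but only at 0.785 to 0.804 with the SRSF7 pulldowns of the main table, which carry the same bait and the same RNA label. A pair of pseudogenes sorted the libraries in the same way. RPS14P8 had 19 to 32 reads and RPS3AP21 0 to 1 in the 8 libraries of the second table and the LMNA and GFP pulldowns. The 24 other pulldowns had 1 to 15 and 10 to 88. The 4 SRSF7 and LMNA inputs had 6 to 11 and 22 to 30, unlike the pulldowns they are set beside here. The compared libraries therefore resembled each other and the GFP pulldowns more than the SRSF7 libraries resembled their main-table namesakes; the cause was not tested, and bait and deposited table cannot be told apart. Within the LMNA pair the difference moved with gene length: replicate 1 minus replicate 2 had a median log2 difference of 0.27 for genes under 10 kb and of -0.33 for genes over 300 kb, where the SRSF7 pair gave -0.01 and -0.07.

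Of 23815 genes tested with edgeR's quasi-likelihood model, 2942 differed between the SRSF7 and LMNA pulldowns at an adjusted p under 0.05, which is 12.4% of the genes. More RNA was recovered with SRSF7 for 1759 genes (7.39%) and less for 1183 (4.97%). Only 748 genes, 402 higher and 346 lower, also differed by at least 2-fold. The count of 2942 depended on the libraries fitted. It was 1743 with the 4 alone, 309 with 8 of similar profile and 5350 without the inputs of FBL and NPAT. For 13148 genes (55.2%) both SRSF7 libraries lay on 1 side of both LMNA libraries, so non-overlapping values alone set few genes apart. The split between directions depended on the scaling: 59.8% of calls were higher with TMM scaling, 46.0% with DESeq2 size factors and 30.0% with total counts, under which the median of all genes moved from -0.03 to -0.17. Single libraries also weighed on the count, which was 1435 without SRSF7 replicate 1, 1020 without SRSF7 replicate 2 and 1111 without LMNA replicate 1. In whole cell-line RNA the lines differed far less often: 628 genes (2.64%) differed between the SRSF7 and LMNA inputs, 298 (1.25%) higher and 330 (1.39%) lower. Leaving out any 1 of these 4 input libraries gave 130 to 199 such genes.

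Some of the most extreme pulldown differences were as large between the inputs, while most called genes showed no called difference there. Of the 748 genes past 2-fold, 104 (13.9%) were called in the same direction between the inputs. Over all calls, 125 genes were higher in both comparisons, 7.11% of the pulldown's and 41.9% of the input's higher genes, and 95 were lower in both, 8.03% and 28.8%. Across the 12278 genes the pulldown and input differences, which share no library, correlated at 0.20. In a test of the interaction, a called gene may have the larger difference in either fraction, as USP25 below has in the inputs. The pulldown difference departed from the input difference for 893 genes (3.75%), 635 (2.67%) toward SRSF7 and 258 (1.08%) toward LMNA. That count moved widely when 1 library was left out, from 76 without SRSF7 input replicate 1 to 1604 without LMNA pulldown replicate 2. It was 287 and 324 without SRSF7 pulldown replicates 1 and 2, 111 without LMNA pulldown replicate 1, 301 without SRSF7 input replicate 2, and 271 and 140 without LMNA input replicates 1 and 2.

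**Figure D1:**
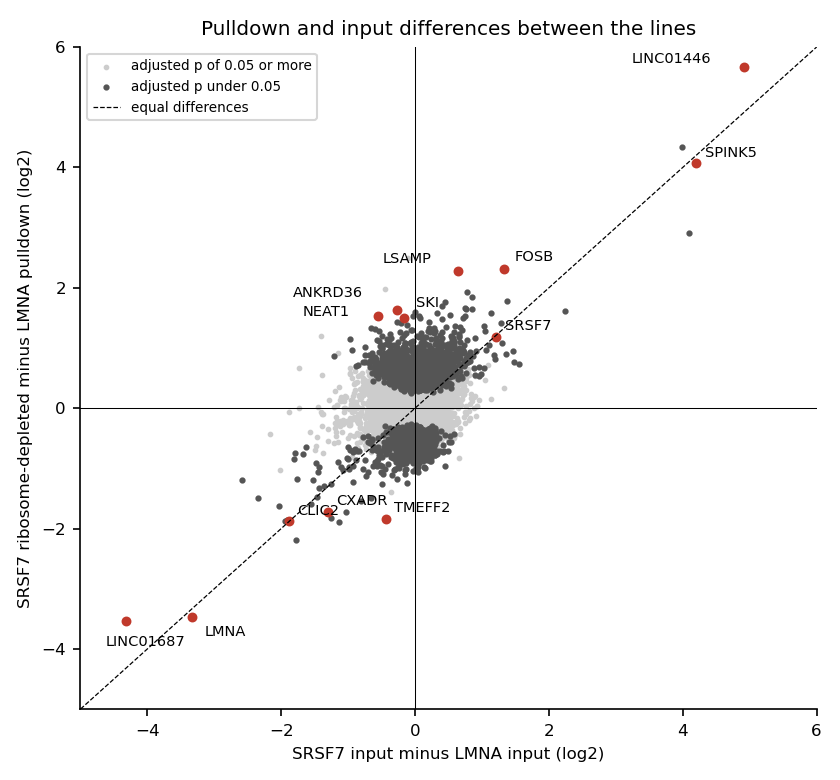
Each point is 1 of the 12278 genes with a mean of at least 5 CPM in the 4 pulldowns; the x axis is the log2 difference between SRSF7 and LMNA inputs, the y axis that between the pulldowns, dark points have an adjusted p under 0.05 in the pulldowns, and red points are named genes. LMNA, LINC01687, SPINK5 and LINC01446 lie along the line of equal differences, whereas NEAT1, SKI and ANKRD36 lie above 1 on the y axis and below 0 on the x axis.

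The bait genes marked the lines. LMNA RNA stood at 35.4 and 30.5 CPM in the SRSF7 pulldowns and at 390 and 341 CPM in the LMNA pulldowns, a log2 difference of -3.47 (SE 0.20, adjusted p = 1.00e-15). In the inputs it stood at 88.2 and 79.6 against 830 and 856 CPM, a log2 difference of -3.33. The GFP pulldowns, with 42.2 and 46.4 CPM, were close to the SRSF7 pulldowns. SRSF7 RNA stood at 339 and 336 against 163 and 132 CPM in the pulldowns (log2 difference 1.19, SE 0.15, adjusted p = 5.64e-07) and at 463 and 418 against 194 and 186 CPM in the inputs (1.21). Both genes therefore differed by as much before the pulldown as after it (interaction -0.14, SE 0.26, for LMNA and -0.02, SE 0.21, for SRSF7), and reads of the transgene and of the cells' own gene cannot be told apart.

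A run of genes on the proximal part of the long arm of chromosome 21 was lower in the SRSF7 line in both fractions. LINC01687, a long non-coding RNA, stood at 1.04 and 1.10 CPM in the SRSF7 pulldowns and at 11.3 and 13.7 in the LMNA pulldowns, and at 0.361 and 0.292 against 6.24 and 6.72 CPM in the inputs; its log2 differences were -3.54 and -4.32. CXADR, which encodes the coxsackievirus and adenovirus receptor, differed by -1.72 in the pulldowns and -1.31 in the inputs. The growth-arrest gene BTG3 differed by -1.48 and -1.47, and C21orf91 by -1.59 and -1.56. Among all 1065 windows of 12 neighbouring genes with a mean of at least 2 CPM, the one at chr21:6484623-17792509 (GRCh38.p14) had the lowest median pulldown difference, -1.17, beside an input median of -1.39. U2AF1L5 (0.41 and 0.11) and TEKT4P2 (0.21 and -0.35), which open that window, were called in neither fraction. The same span held genes that differed less in the pulldowns than in the inputs. USP25, a deubiquitinase gene, differed by -0.65 (SE 0.18) in the pulldowns and by -1.62 (SE 0.18) in the inputs, with an interaction of 0.97 (adjusted p = 0.023). For the long non-coding host gene MIR99AHG the differences were -0.75 and -1.80, with an interaction of 1.05 (adjusted p = 0.049), and for NRIP1, a nuclear receptor corepressor, -0.76 and -1.67 (adjusted p of the interaction 0.11).

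**Figure D2:**
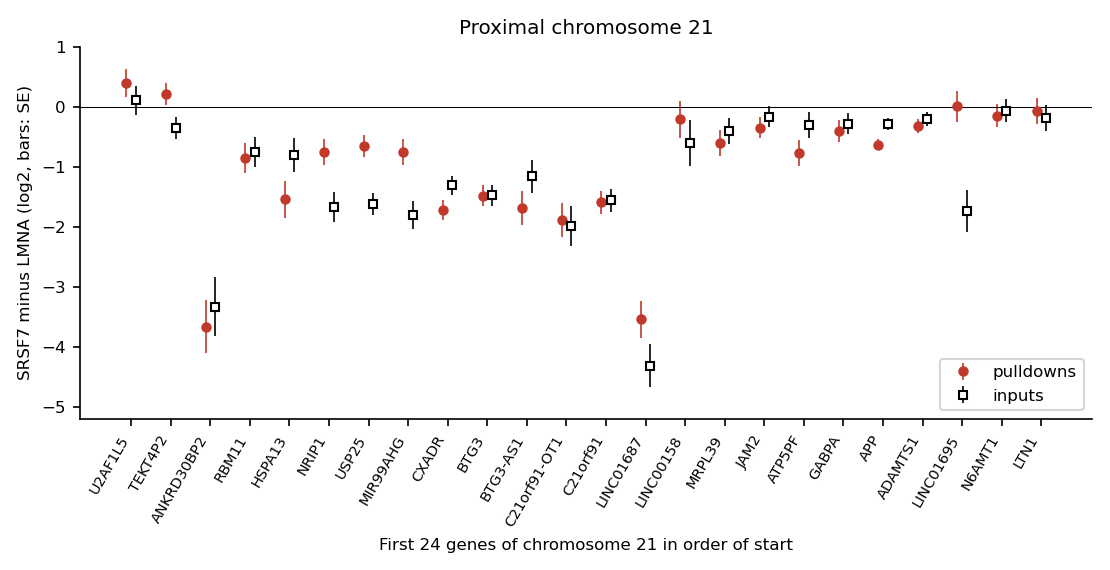
Log2 differences between the SRSF7 and LMNA lines for the first 24 genes of chromosome 21 in order of their start, in the pulldowns (red) and the inputs (open squares), with bars of 1 SE. From ANKRD30BP2 to LINC01687 every gene drawn lies below 0 in both fractions, and NRIP1, USP25 and MIR99AHG are lower in the inputs than in the pulldowns.

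The 36 genes with the largest differences, 12 coding genes and 6 long non-coding RNAs in each direction, were named by size among called genes with a mean of at least 5 CPM and non-overlapping libraries. Of the 18 higher genes, 5 were called in the same direction in the inputs and 10 had a called interaction. Of the 18 lower genes, 13 were called in the same direction in the inputs and 2 had a called interaction. Whether these counts differ between the directions was not tested.

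**Figure D3:**
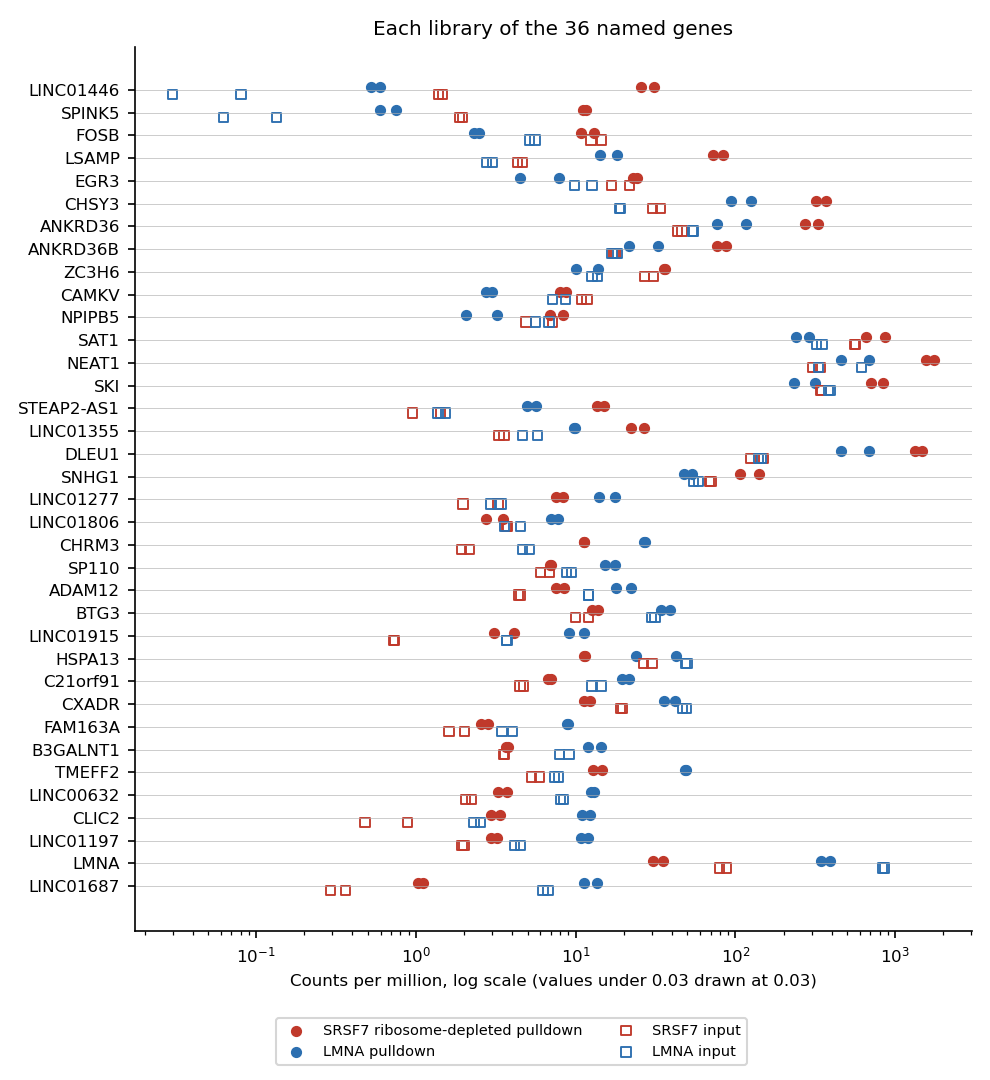
CPM on a log scale in every library for the 36 named genes, ordered by log2 difference; filled circles are pulldowns and open squares inputs, red for the SRSF7 line and blue for the LMNA line. For DLEU1, SKI and ANKRD36 the blue and red circles are apart while the squares lie close together, and for LINC01687, SPINK5 and LINC01446 the squares are as far apart as the circles.

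Among genes higher with SRSF7, the long non-coding RNA NEAT1, the architectural RNA of paraspeckles, had 1547 and 1747 CPM in the SRSF7 pulldowns and 689 and 455 in the LMNA pulldowns. Its log2 difference was 1.53 (SE 0.26, adjusted p = 6.58e-05), against -0.56 in the inputs, where the LMNA line had 615 and 331 CPM and the SRSF7 line 304 and 338. The interaction for NEAT1 was 2.08 (SE 0.36, adjusted p = 0.00085). SKI, a corepressor of TGF-beta signalling, had 835 and 704 against 231 and 313 CPM (log2 difference 1.5, SE 0.15, adjusted p = 7.74e-09), with inputs of 343 and 346 CPM in the SRSF7 line and an input difference of -0.17. No LMNA library reached the level of either SRSF7 library for these genes, as the rule that named them required, while their inputs were level or reversed in order.

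Other genes differed more in the pulldowns than in the inputs, where none of the following was called. DLEU1, a long non-coding RNA gene of 13q14, had 1331 and 1471 CPM with SRSF7 and 455 and 687 with LMNA, with inputs of 125 to 150 CPM in all 4 libraries (log2 difference 1.29, SE 0.28, adjusted p = 0.0017). LSAMP, a neuronal adhesion gene, had 72.2 and 84.1 against 14.2 and 18.1 CPM (2.28, SE 0.29, adjusted p = 7.62e-07), with inputs of 4.66 and 4.30 against 3.00 and 2.75. CHSY3, a chondroitin synthase gene, had 320 and 368 against 94.3 and 125 CPM (1.65, SE 0.27, adjusted p = 3.78e-05), with an input difference of 0.76; its interaction of 0.89 missed the threshold (adjusted p = 0.19). In each the SRSF7 pulldowns lay above the LMNA pulldowns by more than the spread within either pair. The ankyrin-repeat genes ANKRD36 and ANKRD36B, whose near-identical copies can share reads, differed by 1.63 (SE 0.22) and 1.60 (SE 0.22), against -0.27 and -0.01 in the inputs. LINC01355 differed by 1.31 (interaction 1.92, adjusted p = 0.00061), and STEAP2-AS1, an antisense gene whose counts may include reads of its partner, by 1.44.

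A further set was named whose input differences were positive as well. FOSB, an immediate early transcription factor gene, had 10.8 and 13 against 2.32 and 2.47 CPM (log2 difference 2.31, SE 0.22) and differed by 1.33 in the inputs, with an interaction of 0.98 (adjusted p = 0.047). SAT1, which encodes the polyamine acetyltransferase, differed by 1.53 and by 0.74 in the inputs. ZC3H6, a zinc finger gene, differed by 1.58 and 1.13, and for CAMKV, a pseudokinase gene, the values were 1.54 and 0.51, the latter not called (adjusted p = 0.052). SPINK5, a serine protease inhibitor gene, had 11.6 and 11.1 CPM against 0.750 and 0.592, and LINC01446 25.8 and 30.9 against 0.522 and 0.592; their log2 differences of 4.07 and 5.66 stood beside 4.20 and 4.92 in the inputs.

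Only 2 of the lower genes had a called interaction. TMEFF2, a transmembrane protein gene with follistatin-like domains, had 12.8 and 14.6 CPM in the SRSF7 pulldowns and 49.3 and 48.4 in the LMNA pulldowns, with inputs of 5.29 and 5.91 against 7.37 and 7.82. Its log2 difference was -1.83 (SE 0.26, adjusted p = 3.16e-06), and the GFP pulldowns, at 17.8 and 13.4 CPM, were near those of SRSF7. SP110, a member of the SP100 nuclear body family, had 6.97 and 6.88 against 17.7 and 15.4 CPM (-1.25, SE 0.15, adjusted p = 2.82e-07), with GFP pulldowns at 7.48 and 7.07. For both genes the LMNA libraries alone were high. The other lower genes included CLIC2, a chloride intracellular channel gene (-1.87 in the pulldowns, -1.88 in the inputs), ADAM12, a metalloprotease gene (-1.33 and -1.43), CHRM3, a muscarinic receptor gene (-1.25 and -1.26), and LINC00632 (-1.87 and -1.94). B3GALNT1, a glycosyltransferase gene, differed by -1.82 and -1.26, and FAM163A by -1.73 and -1.03.

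Upstream sequences are shown because, with TMM scaling of all libraries, the share of calls that were higher went with the promoter's base composition. The 13798 genes tested that had a promoter were divided into 4 nearly equal parts. The division was by the GC content of the 300 bases around their start, with limits of 56.0%, 64.0% and 71.3%. From the lowest to the highest GC, 209, 271, 343 and 361 genes were higher with SRSF7 and 218, 203, 232 and 201 lower. The higher share of calls thus went from 48.9% through 57.2% and 59.7% to 64.2%. Under total counts it was 25.3%, 24.0%, 27.5% and 32.4%, with the lowest 2 parts in the other order. The median difference was -0.14, -0.04, -0.00 and 0.02, and -0.05, 0.01, 0.03 and 0.02 without LMNA replicate 1. From the named coding genes, the 2 higher ones with the most GC and the 2 lower ones with the least are shown. Each is the stretch of 250 bases ending at the gene's start, from RefSeq on GRCh38.p14, read 5′ to 3′ on the gene's strand, with every CG dinucleotide in capitals; CG reads the same on both strands.
CHSY3 (chr5:129904215-129904464, + strand, GC 77.2%): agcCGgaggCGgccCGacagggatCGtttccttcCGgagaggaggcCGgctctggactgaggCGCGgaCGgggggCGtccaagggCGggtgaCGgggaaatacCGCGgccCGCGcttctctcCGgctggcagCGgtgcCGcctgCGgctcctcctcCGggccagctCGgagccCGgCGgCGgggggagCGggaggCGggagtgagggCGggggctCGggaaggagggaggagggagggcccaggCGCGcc
ANKRD36B (chr2:97589878-97590127, - strand, GC 73.6%): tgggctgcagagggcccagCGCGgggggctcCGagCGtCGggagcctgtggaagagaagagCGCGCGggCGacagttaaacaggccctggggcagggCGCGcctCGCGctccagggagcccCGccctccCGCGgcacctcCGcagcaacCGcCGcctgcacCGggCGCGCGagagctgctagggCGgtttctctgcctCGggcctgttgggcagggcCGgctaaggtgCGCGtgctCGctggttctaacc
CLIC2 (chrX:155334615-155334864, - strand, GC 46.4%): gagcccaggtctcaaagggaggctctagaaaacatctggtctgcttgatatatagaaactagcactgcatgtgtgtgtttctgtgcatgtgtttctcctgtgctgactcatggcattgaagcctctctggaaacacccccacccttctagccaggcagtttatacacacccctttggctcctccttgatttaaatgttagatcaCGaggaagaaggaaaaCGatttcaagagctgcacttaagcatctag
FAM163A (chr1:179727526-179727775, + strand, GC 49.2%): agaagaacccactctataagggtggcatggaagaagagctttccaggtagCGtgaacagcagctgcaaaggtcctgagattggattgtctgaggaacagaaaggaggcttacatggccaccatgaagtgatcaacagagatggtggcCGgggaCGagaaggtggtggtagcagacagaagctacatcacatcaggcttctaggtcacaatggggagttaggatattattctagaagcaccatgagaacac
CHSY3 held 31 CG dinucleotides and ANKRD36B 29, as many as or more than which were found in 10.6% and 13.8% of 27305 promoters. CLIC2 held 2 and FAM163A 3, a number that 84.6% and 76.4% of promoters reach or exceed. These 4 are extremes: over the 8 higher and 11 lower named genes with a promoter in the table, median GC was 68.0% and 66.0%.

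Landmark nuclear RNAs did not all follow NEAT1. MALAT1, the abundant speckle RNA, had 4474 and 5612 CPM with SRSF7 and 3516 and 3210 with LMNA, a log2 difference of 0.58 (SE 0.23) that missed the threshold (adjusted p = 0.094). The imprinting RNA KCNQ1OT1 had 0.45 (adjusted p = 0.16) beside -0.78 in the inputs, with an interaction of 1.23 (adjusted p = 0.017), and FTX, a regulator in the X inactivation centre, 0.59 (adjusted p = 0.082). NORAD, which binds Pumilio proteins in the cytoplasm, had -0.31 (adjusted p = 0.093), and the RNase MRP RNA RMRP -0.13 (SE 0.30). Of the 19 landmark RNAs tested, 4 were higher and 0 lower by edgeR: NEAT1, SNHG1 (1.28), GAS5 (0.53) and the miRNA host MIR503HG (1.26). DESeq2 called 4 and 1, and 9 and 1 had an unadjusted p under 0.05.

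Genes known for detained introns, which keep unspliced introns in polyadenylated nuclear RNA, were mostly higher with SRSF7. This list, like the others, was chosen with earlier results of these data known, so its counts below describe it and test nothing. Of 31 tested, edgeR called 21 higher and 0 lower, with a median log2 difference of 0.59, against 7.39% and 4.97% of all genes and a median of -0.03. DESeq2 also called 21 and 0, and 24 and 0 had an unadjusted p under 0.05. Their input median was 0.13. The interaction was called for 7 of the 31 toward SRSF7 and 0 toward LMNA by edgeR, with a median of 0.41. Over all genes these shares were 2.67% and 1.08%, and under total counts 5 of the 31 were called. ANKZF1, a factor in rescue of stalled ribosomes, had 32.3 and 33.2 CPM with SRSF7 and 12.5 and 16.3 with LMNA, with inputs of 17.6 to 21.6 (log2 difference 1.18, SE 0.12, adjusted p = 7.74e-09). PAN2, a subunit of a poly(A) deadenylase, had 102 and 118 against 52.9 and 44.6 CPM (1.17, SE 0.13), and SRSF5, an SR protein gene, 146 and 181 against 92.5 and 76.9 (0.95, SE 0.15). The list also held the splicing kinase genes CLK1 (0.70) and CLK4 (0.78), the cyclin gene CCNL2 (0.72), the helicase gene DDX5 (0.75) and the O-GlcNAc transferase gene OGT (0.74). In each of these the SRSF7 libraries lay above the LMNA libraries, which adds little, since 2934 of all 2942 called genes had libraries that do not overlap. The count fell to 12 without SRSF7 replicate 2 or without LMNA replicate 1, again with 0 lower, and to 3 in a fit of only the 8 libraries of similar profile, where the median was 0.57. In the comparison of main-table SRSF7 with NLS pulldowns, which uses none of these 4 libraries, 14 of the 31 were higher and 2 lower, where 18.7% and 14.6% of all genes were.

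Genes for speckle scaffold and RS-domain proteins, which partly overlap that list, were higher for 16 and lower for 1 of 38 tested, with a median of 0.32 (0.06 in the inputs). The interaction was called for 5 of the 38 toward SRSF7 and 0 toward LMNA by edgeR, and for 1 toward SRSF7 under total counts. SON, a core scaffold of speckles, had 679 and 703 against 528 and 514 CPM (0.41, SE 0.10, adjusted p = 0.0054). LUC7L3, a U1-associated factor, had 395 and 457 against 256 and 262 (0.72), RBM25 0.61 and SREK1 0.73, whereas SCAF1 was lower (-0.58). The count of higher genes was 5 without SRSF7 replicate 2, 7 without LMNA replicate 1 and 0 in the fit of 8 libraries (median 0.31). Among 14 SR protein genes, SRSF2 (0.67), SRSF5 and the bait SRSF7 were higher and SRSF8 lower (-0.56). Core spliceosome genes showed no such tilt, with 1 higher and 3 lower of 48. Hosts of small nucleolar RNAs, whose introns carry those RNAs, were higher for 7 and lower for 1 of 21, with SNHG1, SNHG15 (0.91) and SNHG12 (0.78) among the higher. Without SRSF7 replicate 2, 3 of these hosts were higher, and 4 without LMNA replicate 2; their median of 0.10 was -0.04 under total counts.

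**Figure D4:**
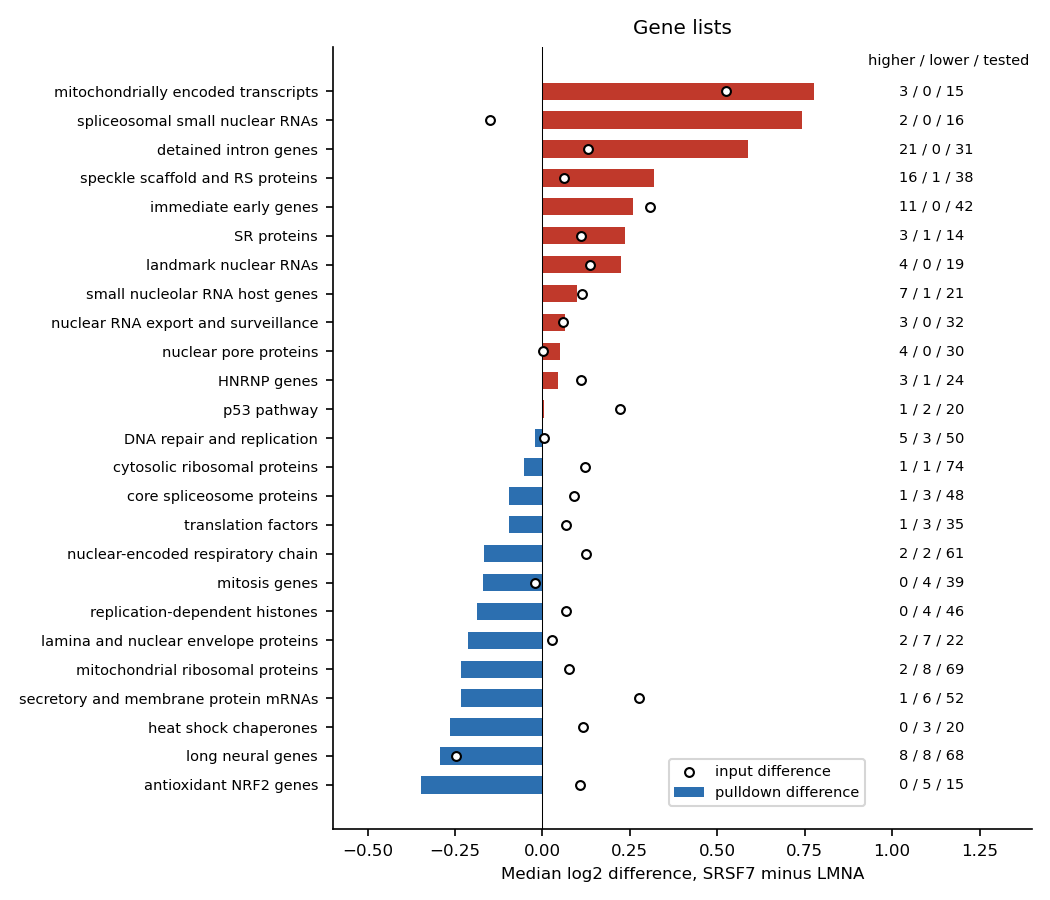
Median log2 difference of the tested members of each gene list drawn; bars give the pulldowns, circles the inputs, and the numbers at the right the genes higher, lower and tested. Detained intron genes combine a median of 0.59 with 21 higher and 0 lower of 31, and the lists with medians below -0.20 had input medians above 0 except the long neural genes.

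Immediate early genes, which serum and stress induce within minutes, were higher for 11 and lower for 0 of 42 by edgeR, with a median of 0.26. DESeq2 called 11 higher and 1 lower, and 18 and 3 had an unadjusted p under 0.05. The input libraries differed in the same way, with 13 higher, 0 lower (14 and 0 by DESeq2, and 20 and 0 at an unadjusted p under 0.05) and a median of 0.31. FOS had 14.1 and 14 against 6.20 and 4.70 CPM in the pulldowns (1.36, SE 0.20) and 28.2 and 34.1 against 15.1 and 15.5 in the inputs (1.03). TRIB1, a pseudokinase gene, differed by 1.06 and 0.59, and EGR3, a zinc finger factor gene, by 1.93 and 0.78. These genes thus differed between the inputs as well. Against the main-table SRSF7 pulldowns, those of the separate table were lower for 38 of the 42 and higher for 0 by edgeR. Over all genes these shares were 29.6% and 22.9%. The SRSF7 inputs are those of the main table. Whether the cells of the separate table differed from the LMNA line before the pulldown was not tested. Without SRSF7 replicate 2, 5 were higher in the pulldowns.

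Genes for the lamina and nuclear envelope leaned to the LMNA side, 7 lower and 2 higher of 22. Beside the bait LMNA itself, SYNE1, a giant nesprin gene, had 68.7 and 73.6 CPM with SRSF7 and 116 and 109 with LMNA (-0.66, SE 0.13, adjusted p = 0.00084). LMNB2 (-0.53), TMPO (-0.44), BANF1 (-0.65) and TOR1AIP2 (-0.51) were also lower, while SUN1 was higher, at 193 and 192 against 141 and 132 CPM (0.50, SE 0.09, adjusted p = 0.00021). The count of lower genes was 2 without SRSF7 replicate 1, without SRSF7 replicate 2 or without LMNA replicate 1. Of 30 nuclear pore genes 4 were higher, NUP214 (0.53), NUP58 (0.45), RAE1 (0.44) and NUP85 (0.35), and 0 lower by edgeR. DESeq2 called 4 and 0, and 5 and 1 had an unadjusted p under 0.05. Under total counts 1 was higher and 2 were lower, and without LMNA replicate 1 none was called.

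Lists of mRNAs for cytoplasmic and mitochondrial functions lay below 0. Antioxidant genes under NRF2 were lower for 5 of 15 and higher for 0 by edgeR, with a median of -0.35 (0.11 in the inputs). DESeq2 called 7 lower and 0 higher, and 8 and 0 had an unadjusted p under 0.05. Among them GCLM, a subunit of glutathione synthesis, had 20.4 and 21.1 against 40.6 and 32 CPM (-0.80, SE 0.13, adjusted p = 4.14e-05), and HMOX1, the haem oxygenase, differed by -1.03. mRNAs for secreted and membrane proteins were lower for 6 and higher for 1 of 52, with a median of -0.23, where the inputs had 0.28. KDELR1, a receptor that retrieves endoplasmic reticulum proteins, had 22.2 and 19.1 against 39.5 and 29.4 CPM, and its inputs 178 and 157 against 147 and 154 (-0.74 in the pulldowns, interaction -0.90, adjusted p = 0.021). BSG, the basigin gene, differed by -0.70 (interaction -0.99, adjusted p = 0.015). Mitochondrial ribosomal protein genes were lower for 8 and higher for 2 of 69, whereas cytosolic ones were lower for 1 and higher for 1 of 74. Heat shock genes were lower for 3 of 20 in the edgeR fit: HSPA1A (-2.16) and HSPA1B (-1.05), which are near-identical and can share reads, and STIP1 (-0.49).

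These counts shrank when single libraries were left out. Short genes were higher in LMNA replicate 1 than in LMNA replicate 2, as given above, and without replicate 1 1 NRF2 gene, 1 secretory gene, 1 mitochondrial ribosomal protein gene and 1 heat shock gene were lower, and the medians were -0.11, 0.02, -0.05 and -0.19. Leaving out SRSF7 replicate 2 gave 2, 1, 1 and 1 lower genes, and leaving out SRSF7 replicate 1 gave 3, 4, 2 and 2. Without LMNA replicate 2 the mitochondrial ribosomal list had 16 lower genes.

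The 15 transcripts of the mitochondrial genome, which lie outside the nucleus, had a median of 0.78, with 3 called higher and 0 lower by edgeR (4 and 0 by DESeq2, and 9 and 0 at an unadjusted p under 0.05). Leaving out any 1 of the 4 libraries left 1 called. Their summed level was 4474 and 4466 CPM in the SRSF7 pulldowns, 2543 and 1926 in the LMNA pulldowns and 3608 and 4445 in the GFP pulldowns. The LMNA libraries were therefore the low ones. The inputs differed in the same direction, with a median of 0.53; none was called there by edgeR or DESeq2, and 3 had an unadjusted p under 0.05.

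Called genes among the longest were more often higher with SRSF7 in the pulldowns and mostly lower in its inputs, though most were not called in either. Of 831 genes spanning over 300 kb, 127 (15.3%) were higher and 49 (5.90%) lower with SRSF7, with a median of 0.12, while in the inputs 2 were higher and 45 lower, with a median of -0.32. The interaction was called for 134 of them (16.1%), beside 2.67% of all genes, and 0 went toward LMNA by edgeR (167 and 1 by DESeq2, and 325 and 23 at an unadjusted p under 0.05). AUTS2, a transcriptional regulator of neural development, had 2216 and 2289 CPM with SRSF7 and 777 and 1279 with LMNA (1.13, SE 0.26), and inputs of 320 and 363 against 428 and 472. MACROD2, an ADP-ribose hydrolase gene, had 477 and 492 against 165 and 236 CPM (1.27, SE 0.28, adjusted p = 0.0016). POLA1, the catalytic subunit of DNA polymerase alpha, had 1120 and 1207 against 425 and 555 CPM (1.25, SE 0.19), with inputs of 230 and 243 against 261 and 258. In these genes LMNA replicate 1 was the lowest of the 4 libraries. Without it 14 genes over 300 kb were higher and 10 lower, and the interaction was called for 7, whereas without LMNA replicate 2 the counts were 186, 31 and 216. Without SRSF7 replicate 1 or 2, 62 and 46 genes were higher and 7 and 8 lower. Under total counts 79 were higher and 70 lower, and the median was -0.00. In a fit of the 4 libraries alone the split turned, with 86 higher and 96 lower.

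Long neural genes were divided by level. Of the 37 with a mean of at least 5 CPM, 8 were higher and 1 lower, with a median of 0.45; without SRSF7 replicate 1, SRSF7 replicate 2 or LMNA replicate 1, 5, 3 and 1 of them were higher. Of the 31 below that level, 0 were higher and 7 lower by edgeR, with a median of -1.53 (input -0.19). DESeq2 called 0 and 6, and 0 and 20 had an unadjusted p under 0.05. CNTN5, a contactin gene, had 0.537 and 0.722 CPM with SRSF7 and 4.24 and 3.00 with LMNA, with 1.97 and 5.6 in the GFP pulldowns. DCC, the netrin receptor gene, had 0.644 and 0.894 against 2.51 and 2.86 CPM, and 1.90 and 4.04 with GFP. LRRC4C, a netrin-G ligand gene, had 0.501 and 0.722 against 3.52 and 4.04 CPM. The SRSF7 libraries were therefore low in these genes beside both LMNA and GFP, whose own libraries spread widely. Of these 31 genes, 0 were called without SRSF7 replicate 1, SRSF7 replicate 2 or LMNA replicate 1, with medians of -1.45, -1.60 and -1.22. CNTNAP2, the lower gene above 5 CPM, had 26.3 and 23.7 against 59.5 and 48.7 CPM (-1.11, SE 0.19, adjusted p = 0.00011).

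The direction of calls went with the density of coding genes around a gene. With 0 to 4 coding genes starting within 1 Mb, 57 of 1225 genes (4.65%) were higher and 110 (8.98%) lower with SRSF7. With 20 to 39 such neighbours, 473 of 4497 (10.5%) were higher and 183 (4.07%) lower. The share of calls that were higher went from 34.1% (0 to 4 neighbours) through 41.7% (5 to 9), 54.4% (10 to 19) and 72.1% (20 to 39) to 69.1% (40 or more). Input calls were few at every density. There were 12 higher and 18 lower at 0 to 4 neighbours, 32 and 49 at 5 to 9, and 64 and 83 at 10 to 19. At 20 to 39 there were 59 and 65, and at 40 or more 73 and 41. The input calls thus also turned to higher in the densest surroundings. With DESeq2 size factors their higher share went from 37.5% at 0 to 4 to 61.1% at 40 or more. For the pulldowns, other scaling moved the level of the higher share but kept its order. It went from 14.3% at 0 to 4 to 37.5% at 20 to 39 with total counts, and from 24.5% to 57.0% with DESeq2 size factors. Without LMNA replicate 1 it went from 24.5% to 74.9%, and without LMNA replicate 2 from 43.8% to 74.3%. Without SRSF7 replicate 1 the calls at 0 to 4 neighbours turned to 34 higher and 26 lower, beside 291 and 65 at 20 to 39, and without SRSF7 replicate 2 they were 17 and 31 beside 232 and 27. The median difference of all genes went from -0.32 at 0 to 4 neighbours to 0.04 at 20 to 39, but from -0.02 to 0.06 among genes with a mean of at least 5 CPM. At that level 51 genes (9.19%) were higher and 58 (10.5%) lower at 0 to 4 neighbours, a higher share of 46.8%. At 20 to 39 neighbours 415 were higher and 137 lower, a share of 75.2%, beside 62.8% over all genes at that level. The lower median in gene-poor surroundings thus lay mostly among weakly counted genes, while the split of calls still went with density among well-counted ones.

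**Figure D5:**
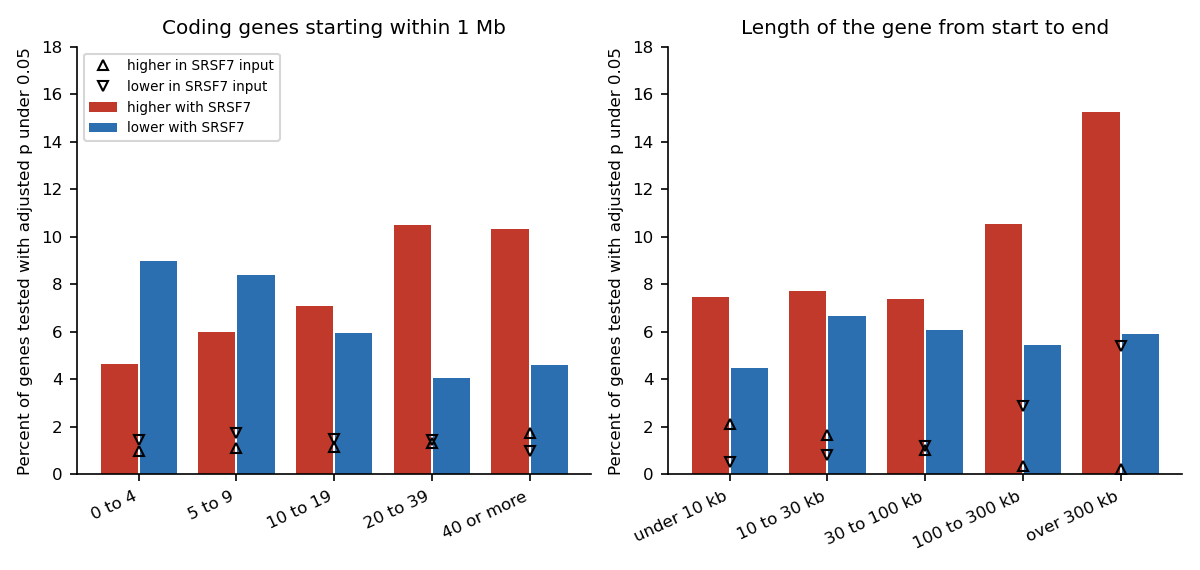
Percent of tested genes with an adjusted p under 0.05, by the number of coding genes starting within 1 Mb (left) and by gene length (right); red bars are genes higher and blue bars genes lower in the SRSF7 pulldowns, and triangles give the inputs. Higher genes go from 4.65% at 0 to 4 neighbours to 10.5% at 20 to 39, and over 300 kb the pulldown has 15.3% higher while the input has 5.42% lower.

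Chromosomes did not all follow gene density. On the gene-rich chromosomes 17 and 22, 131 and 52 genes were higher and 35 and 9 lower, and on chromosome 14, 63 were higher and 20 lower. On the gene-poor chromosomes 18 and 4, 8 (2.84%) and 36 (4.74%) were higher and 32 (11.3%) and 60 (7.89%) lower. Against that order, the gene-rich chromosomes 19 and 16 had 53.1% and 53.4% of their calls higher, below the 59.8% of all calls, and the gene-poor chromosome 13 had 68.2%. Chromosome 18 also had 0 higher and 15 lower (5.32%) genes in the inputs, beside 1.25% and 1.39% of all genes. Chromosome 21 had 16 higher (8.25%) and 29 lower (14.9%) in the pulldowns and 2 (1.03%) and 22 (11.3%) in the inputs. Among windows of 12 genes, the 80 with a median over 0.25 had a median density of 19.8 coding neighbours and the 74 under -0.25 one of 10.3, beside 18.5 over all windows; their input medians were 0.01 and -0.01. Across all 1065 windows, density correlated at 0.20 with the pulldown difference and at 0.40 with the input difference. The highest window, chr1:184916-1014540, lay at the end of chromosome 1 with a median of 0.71.

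Comparison with main-table SRSF7 pulldowns showed how far the direction was shared by libraries of the same bait. Main-table SRSF7 against NLS gave 7916 genes (33.2%), 4445 (18.7%) higher and 3471 (14.6%) lower. That count was 3976 without SRSF7 replicate 1, 4550 without NLS replicate 1 and 5213 without NLS replicate 2. Of the genes higher with SRSF7 here, 917 (52.1%) were also higher there, which is 20.6% of the genes higher there, and 151 (8.58%) were lower there. Of the genes lower here, 464 (39.2%) were also lower there, 13.4% of that list, and 69 (5.83%) were higher. Across the 12278 genes the differences of the 2 comparisons, which share no library, correlated at 0.37. By gene density, main-table SRSF7 was higher than NLS for 4.57% and lower for 26.0% of genes with 0 to 4 neighbours, and for 42.6% and 3.90% with 40 or more. Gene length did not, since genes over 300 kb were higher for 11 and lower for 240 in that comparison.

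The levels of the SRSF7 pulldowns in the separate table and in the main table differed more than SRSF7 from LMNA, for 12494 genes (52.5%), 5442 (22.9%) higher in the separate table and 7052 (29.6%) lower. This comparison shares its SRSF7 libraries with those above. Its median went from -1.02 for genes under 10 kb to 1.66 for genes over 300 kb, and from 0.92 with 0 to 4 coding neighbours to -1.01 with 40 or more. DLEU1 had 208 and 228 CPM in the main-table SRSF7 pulldowns against the 1331 and 1471 given above, and NEAT1 801 and 751 against 1547 and 1747. MALAT1 ran the other way, with 6816 and 6658 CPM in the main table.

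Against GFP pulldowns, 5355 genes (22.5%) differed for SRSF7, 3024 (12.7%) higher and 2331 (9.79%) lower, and 2785 (11.7%) for LMNA, 1629 (6.84%) higher and 1156 (4.85%) lower. Both use the same GFP libraries, so they are given side by side only. Detained intron genes were higher than GFP for 24 of 31 with SRSF7 and for 2 with LMNA, and lamina genes were lower than GFP for 9 of 22 with SRSF7 and for 0 with LMNA. By gene density, SRSF7 was higher than GFP for 228 genes and lower for 120 at 0 to 4 neighbours, and for 508 and 660 at 40 or more, and LMNA for 176 and 18 and for 119 and 326. Both baits thus had more higher calls in gene-poor and more lower calls in gene-rich surroundings against GFP, the opposite of main-table SRSF7 against NLS. The NEAT1 level of LMNA (689 and 455 CPM) overlapped that of GFP (635 and 378), and so did AUTS2 (777 and 1279 against 1459 and 943). The SRSF7 count was 1913 without SRSF7 replicate 2 and 2550 without GFP replicate 2, and the LMNA count was 1419 without LMNA replicate 1.

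Markers of the cell line were present in every library. The 8 HEK293 markers, among them CDH2, PAX2, NEFL and VIM, summed to 621 and 665 CPM with SRSF7 and to 715 and 665 with LMNA, and only VIM was called (-0.61). Markers of other cell types, 7 of 8 of which could be tested, summed to 8.84 to 11 CPM in the 4 libraries, with 0 called by edgeR or DESeq2 and 3 at an unadjusted p under 0.05.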

How the data were processed

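Read counts per gene were deposited by the authors as raw whole-number counts. Alignment with STAR 2.7.4a, counting with featureCounts and the build hg38 are listed in the submitters' processing notes. No source used here gives the version of featureCounts, its annotation or its strand setting; per the labels' protocols the library kit was directional, and without the strand setting antisense and overlapping genes may share counts. Both tables list 60591 genes, of which 1 was left out for a cell that holds no number. Of the 60590 used, RefSeq (GRCh38.p14) held 37352 under their symbol and 705 under a synonym; the other 22533 have no position or promoter here. The annotation gives gene spans only, so introns and intron retention were not analysed here.

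Tables were joined by gene, and all 60 libraries were fitted together in R 4.3.3 with edgeR 4.0.16: filterByExpr by group left 23815 genes, scaling was TMM, and glmQLFit used 1 mean for each of 30 groups (30 residual and 9.97 prior degrees of freedom). Contrasts were tested two-sided with glmQLFTest, and a call is a p under 0.05 after Benjamini-Hochberg adjustment over those genes. SE is the log2 difference over the square root of F, and CPM values use TMM-scaled totals. The LMNA and SRSF7 pulldowns come from separate deposited tables of raw counts, so table and bait cannot be told apart in this comparison. The pulldown difference minus the input difference, with the inputs of the main table for both lines, was tested as an interaction.

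Named genes were the 12 coding genes and 6 long non-coding RNAs with the largest differences in each direction among called genes with a mean of at least 5 CPM in the 4 libraries and libraries that do not overlap. To these were added landmark RNAs, the bait genes and up to 4 members of each of 28 gene lists with the smallest adjusted p; other list members were named after their values were seen. The members and lists were chosen with earlier results of these data known, and gene density, the windows of 12 genes and the proximal chromosome 21 genes were examined after the values were seen. Lists are described by counts and medians, with no test of the list. The results of 1 list are not reported here.

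Alternatives were other scalings and filters, DESeq2 1.42.0, fits of fewer libraries, a minimum change of 1.5-fold, the replicate number as a block and leaving out each library. The replicate numbers did not pair the SRSF7 and LMNA pulldowns: the correlation of their replicate differences was -0.03. On simulated counts for the comparison of the pulldowns (23815 genes), the fit recovered 32 of 100 genes changed 1.5-fold and 87 of 100 changed 2-fold. It called 2 of 23615 unchanged genes. The simulated counts were independent between genes, had the same trend of spread in every group, and only well-counted genes were changed. They lack the wider spread of the LMNA pair and its shift with gene length, so these rates need not hold for the real libraries. Over genes with a mean of at least 5 CPM, replicate pairs differed by more than sampling noise. The chi-square per degree of freedom was 13.4 for the SRSF7 pair and 54.2 for the LMNA pair. It was not computed for genes below that level, where counting error weighs more.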

Additional observations from a re-analysis of the deposited data

Results flagged for a closer look

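For 12 of the named genes the difference between the SRSF7 and LMNA lines was not the same in the pulldowns as in the inputs, by edgeR's test of the interaction on the log2 scale. Toward SRSF7 the interaction was 2.08 for NEAT1 (SE 0.36, adjusted p = 0.00085), 1.92 for LINC01355 (SE 0.31, adjusted p = 0.00061) and 1.91 for ANKRD36 (SE 0.30, adjusted p = 0.00040). It was 1.67 for SKI (SE 0.21, adjusted p = 1.93e-05), 1.65 for LSAMP (SE 0.44, adjusted p = 0.029) and 1.60 for ANKRD36B (SE 0.31, adjusted p = 0.0028). DLEU1 had 1.34 (SE 0.40, adjusted p = 0.047), CAMKV 1.03 (SE 0.22, adjusted p = 0.0071), FOSB 0.98 (SE 0.29, adjusted p = 0.047) and SAT1 0.78 (SE 0.22, adjusted p = 0.032). Toward LMNA it was -1.40 for TMEFF2 (SE 0.37, adjusted p = 0.025) and -0.76 for SP110 (SE 0.22, adjusted p = 0.039). In all 12 the 2 SRSF7 pulldown libraries lay on 1 side of the 2 LMNA pulldown libraries, which was part of the rule that named them. NEAT1, LINC01355, ANKRD36 and SKI had input differences of the opposite sign that were not called. Other members of the family of ankyrin-repeat genes can share reads with ANKRD36 and ANKRD36B.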

How the results depend on the processing

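No named gene called between the pulldowns changed sign under any alternative run; MEG3, SOX2-OT, MIAT, RMRP, RN7SL1, DLEU2 and MIR17HG, none of them called, did. Over 2208 pairs of the 139 named genes and a setting, 1798 stayed on the same side of the threshold, 395 (in 88 genes) lost the call and 15 (in 6 genes) gained it. The 2942 calls between the SRSF7 and LMNA pulldowns became 1743 in a fit of the 4 libraries alone, 309 in a fit of 8 libraries, 5350 without the inputs of FBL and NPAT, and 158 with a minimum change of 1.5-fold. Leaving out 1 of the 4 libraries gave 1020 to 3046. The 628 input calls were 1073 with DESeq2 and 130 to 199 with 1 library left out. The 893 interaction calls were 1548 with DESeq2 and 76 to 1604 with 1 library left out. Leaving out 1 library gave 1913 to 7522 calls for SRSF7 against GFP, 1419 to 3877 for LMNA against GFP and 3976 to 6499 for main-table SRSF7 against NLS. The replicate number used as a block gave 2905 calls between the pulldowns and changed no count by over 1.5 times; the libraries share only that number. Except where a fit held fewer libraries, the cause was not tested. With 2 libraries a group, an arm with 1 left out was assumed to vary like the other groups. Lists with negative medians in the pulldowns (secretory, cytosolic ribosomal, respiratory chain and histone genes) had medians of 0.02, 0.31, 0.09 and 0.15 without LMNA replicate 1.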

Other observations

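Genes of 100 to 300 kb, like those over 300 kb, were mostly called lower in the SRSF7 input than in the LMNA input (80 lower and 10 higher of 2771, with a median of -0.15) and more often called higher in the SRSF7 pulldown than in the LMNA pulldown (292 higher and 151 lower, with a median of 0.04). The pulldown split turned to 50 higher and 75 lower (median -0.04) without LMNA replicate 1 and to 159 and 270 (median -0.09) under total counts. Genes under 10 kb had the reverse order in the inputs, with 88 higher and 22 lower of 4139 and a median of 0.14. Spliceosomal small nuclear RNAs were higher with SRSF7 for 2 of 16 and lower for 0 by edgeR (3 and 0 by DESeq2, and 4 and 0 at an unadjusted p under 0.05), with a median of 0.74. Both called genes had few reads: RNU5F-1 stood at 1.14 and 0.722 CPM against 0.326 and 0.279, and RNVU1-29 at 1.11 and 0.756 against 0.196 and 0.348.

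Genes for DNA replication and repair held a mix. ATRX, a chromatin remodeller gene, had 640 and 697 against 370 and 441 CPM (log2 difference 0.72), whereas EXO1, an exonuclease gene, had 137 and 136 against 203 and 194 (-0.54). Of 50 tested, 5 were higher and 3 lower. Of 39 mitosis genes, 4 were lower, SGO1 (-0.67), CCNA2 (-0.58), BIRC5 (-0.46) and PLK1 (-0.42), and 0 were higher by edgeR or DESeq2; 8 were lower and 0 higher at an unadjusted p under 0.05.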
